A study of Mus musculus with 2 samples.

Results

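Fetal and oncofetal growth genes are genes that the fetal liver uses and the adult liver largely silences, and that liver tumours often switch on again. They are represented here by 8 members, taken by symbol from the raw count table: H19, Igf2, Afp, Grb10, Hmga2, Gpc3, Igf2bp3 and Cd24a. All 8 had a row among the 32286 genes of the table, and 7 were detected. The nuclei came from 1 Cox10-/- and 1 wild-type (WT) mouse liver that had regrown after a 70% partial hepatectomy, in which most of the liver is removed. The mice of both groups carried a floxed Cox10 allele and had received an AAV8 virus 4 weeks before surgery, expressing either Cre recombinase or GFP. Which virus each animal received is not stated, nor are age, sex and strain. AAV8 is known to infect mainly hepatocytes, so other liver cells may keep the floxed allele intact. The Cox10 enzyme acts in the making of heme A, which respiratory complex IV needs. The protocol places collection 4 days after surgery and the sample characteristics give 4 weeks, and the files do not decide between the dates. With 1 library per genotype, genotype, animal and preparation cannot be told apart, no test of groups was possible, and each interval is a 95% interval that covers counting error only.

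The members act at several levels of growth control. Igf2 is the main fetal insulin-like growth factor, and H19 is its imprinted neighbour, a noncoding RNA that shares enhancers with Igf2 and carries the microRNA miR-675. Grb10 is an imprinted adaptor that binds the insulin and IGF1 receptors and restrains growth. Igf2bp3 is an RNA-binding protein that binds Igf2 and other transcripts, and Hmga2 is an architectural chromatin protein; both are known targets of the let-7 microRNAs. Afp is the albumin-like plasma protein of the fetus, Gpc3 a heparan sulfate proteoglycan of the cell surface, and Cd24a a small surface glycoprotein of progenitor and bile duct cells.

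The sequences below are those that bear on the genes found highest in nuclei rich in Nrg1 and Areg, described further on. The let-7 family was itself not measured, since mature microRNAs are too short for this assay. In RefSeq (GRCm38.p6) 9 mature let-7 and miR-98 5p sequences from 11 loci matched by name, and all of them shared 1 seed, bases 2 to 8, given in capitals in these 3 examples.

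let-7a-5p: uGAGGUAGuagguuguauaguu

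let-7g-5p: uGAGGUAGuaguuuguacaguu

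miR-98-5p: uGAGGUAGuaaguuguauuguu

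The letters that pair with this seed, CTACCTC, occurred 4 times in the longest annotated 3′ UTR of Hmga2 (3014 bases) and 1 time each in those of Igf2bp3 (2119 bases) and Igf2bp2 (1784 bases). They were not found in those of Igf2, Afp, Grb10, Gpc3 or Cd24a. Among 10241 genes with a 3′ UTR of at least 1000 bases in GENCODE vM21, 15.2% held the match. A match is a description of letters and not of binding. One site of each gene is shown on mm10, with the match in capitals.

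Hmga2 3′ UTR site, chr10:120364224-120364246, minus strand: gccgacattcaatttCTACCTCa

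Igf2bp3 3′ UTR site, chr6:49086787-49086809, minus strand: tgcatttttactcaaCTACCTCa

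Igf2bp2 3′ UTR site, chr16:22059473-22059495, minus strand: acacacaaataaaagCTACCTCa

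RefSeq promoters were found for 6 of the 8 members. The 250 bases before an annotated start of Afp, Hmga2, Igf2bp3 and Grb10 are given 5′ to 3′, because these members were called higher in nuclei rich in Nrg1 and Areg than in hepatocyte-like nuclei. Grb10 had 2 such windows, of which the one without any match is not shown. Capitals mark matches, on either strand, to 5 motifs. The TATA box was searched as TATAAA, and the E-box of basic helix-loop-helix factors as CACGTG. The AP-1 site was searched as TGANTCA, the joint site of CCAAT-enhancer-binding proteins and ATF4 as TGATGNAA, and the GC box as GGGCGG, which reads CCGCCC on the other strand. Only 2 of the GC boxes of Grb10 overlapped each other. The windows of Hmga2 and Grb10 shared the GC box, with 1 and 5 matches, and no other motif was shared. The Afp window held TATAAA, found in 12.4% of 32851 promoter windows of the same length. The Igf2bp3 window held CACGTG, found in 6.02%, and GGGCGG was found in 32.7%. The AP-1 letters, in 6.75% of all windows, and TGATGNAA, in 3.45%, were in none of those shown.

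Afp upstream window, chr5:90490464-90490713, plus strand: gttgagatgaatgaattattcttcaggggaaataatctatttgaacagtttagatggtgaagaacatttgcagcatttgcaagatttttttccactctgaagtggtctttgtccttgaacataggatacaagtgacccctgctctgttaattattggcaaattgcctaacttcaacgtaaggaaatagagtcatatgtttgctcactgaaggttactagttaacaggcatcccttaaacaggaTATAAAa

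Hmga2 upstream window, chr10:120476470-120476719, minus strand: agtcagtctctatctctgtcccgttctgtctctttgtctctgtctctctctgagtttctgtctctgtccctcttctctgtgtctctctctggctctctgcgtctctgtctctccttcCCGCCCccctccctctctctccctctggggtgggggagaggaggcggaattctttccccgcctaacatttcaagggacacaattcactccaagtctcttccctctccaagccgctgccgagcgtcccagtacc

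Igf2bp3 upstream window, chr6:49214955-49215204, minus strand: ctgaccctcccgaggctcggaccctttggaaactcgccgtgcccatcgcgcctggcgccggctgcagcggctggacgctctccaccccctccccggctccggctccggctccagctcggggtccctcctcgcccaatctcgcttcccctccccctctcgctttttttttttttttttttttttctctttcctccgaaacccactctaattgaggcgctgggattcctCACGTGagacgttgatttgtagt

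Grb10 upstream window, chr11:12037421-12037670, minus strand: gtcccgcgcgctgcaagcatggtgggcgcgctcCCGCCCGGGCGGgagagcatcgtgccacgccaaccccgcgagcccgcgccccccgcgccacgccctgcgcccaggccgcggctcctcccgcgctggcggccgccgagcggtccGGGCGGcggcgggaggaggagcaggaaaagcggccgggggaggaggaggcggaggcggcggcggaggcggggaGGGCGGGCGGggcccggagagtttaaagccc

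Transcripts were counted as unique molecular identifiers (UMIs). There were 14476400 UMIs in 5167 Cox10-/- nuclei and 17703804 UMIs in 5448 WT nuclei, and the median nucleus held 2291 in the Cox10-/- and 2853.5 in the WT library. The libraries shared 7 cell barcodes. Cox10 itself had UMIs in 8.40% of Cox10-/- and 10.3% of WT nuclei, but the labels do not give the floxed exon and a 3′ tag outside it would not show the deletion, so this checks nothing. Nuclei were clustered with the 8 members left out of the variable genes, and clusters were named from marker genes. Hepatocyte-like nuclei numbered 1754 in the Cox10-/- and 5198 in the WT library, endothelial-like nuclei 1419 and 46, stellate-like nuclei 750 and 33, myeloid-like nuclei 657 and 40, lymphoid-like nuclei 135 and 20, and cholangiocyte-like nuclei 81 and 9. Unnamed clusters held 260 Cox10-/- and 101 WT nuclei. Hepatocyte-like nuclei of the 2 libraries fell largely into different clusters, and 947 of those of the Cox10-/- library came from a shallow cluster with a median of 1173 UMIs.

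A further 111 Cox10-/- nuclei and 1 WT nucleus formed a cluster with the epidermal growth factor family ligands Nrg1 and Areg among its 10 leading genes. Nrg1 had UMIs in 77.5% and Areg in 61.3% of these Cox10-/- nuclei. This cluster appeared at a finer clustering, a choice made after seeing the data, and 110 of its Cox10-/- nuclei came from the cluster otherwise named cholangiocyte-like. Its identity is not settled by the markers. The summed level of 13 cholangiocyte markers was 582.9 CPM in the Nrg1 and Areg nuclei, against 12700 CPM in cholangiocyte-like nuclei, with Krt19, Krt7, Cftr and Anxa13 at 0 (CPM, the usual depth-scaled count unit, computed on the UMIs summed over a class). The summed level of 13 hepatocyte markers was 8091 CPM, against 22110 CPM in hepatocyte-like nuclei, and myeloid-like nuclei of the same library stood at 8322 CPM. These nuclei are therefore called by their leading genes alone. Their median share of mitochondrially encoded UMIs was 4.44%, against 8.17% in hepatocyte-like and 11.7% in cholangiocyte-like nuclei, and their median depth was 4007 UMIs, against 1671.5 and 3267.

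**Figure D1:**
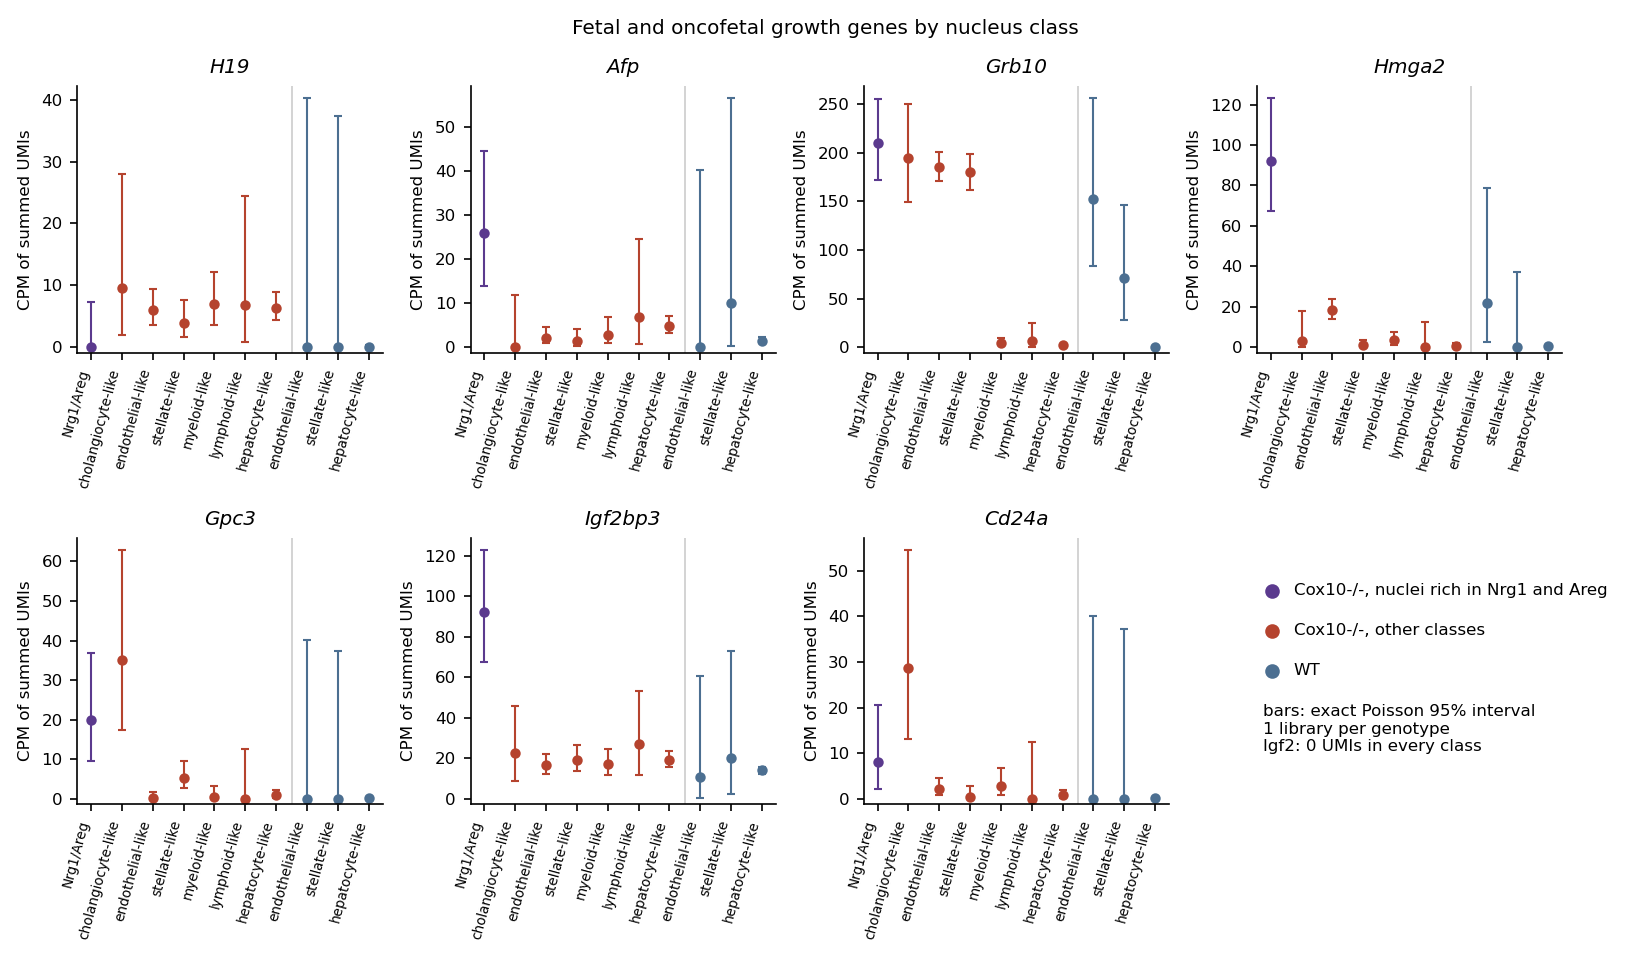
Level of each detected member in CPM of the UMIs summed over a class (points) with the exact Poisson 95% interval (bars), for the classes of the Cox10-/- library (purple and red) and 3 classes of the WT library (blue). Hmga2 and Igf2bp3 both stand at 92.1 CPM in nuclei rich in Nrg1 and Areg, Grb10 lies between 180 and 210 CPM in 4 Cox10-/- classes, and H19 lies below 10 CPM in every class.

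Igf2 had 0 UMIs in all 10615 nuclei. A count of 0 allows up to 3 UMIs over each library, which is 0.207 CPM in the Cox10-/- and 0.169 CPM in the WT library. Igf2 lies on chromosome 7 (142650766 to 142666816, minus strand, mm10), and GENCODE vM21 places a second protein-coding gene, Gm49394, over 16048 of its 16051 bases on the same strand. Gm49394 has no row in the count table, and Igf2os, on the opposite strand, also had 0 UMIs. Igf2 and Igf2os kept their rows at 0 UMIs, and whether Gm49394 was in the annotation used for counting is not given. If it was not, no Igf2 read could be shared with it. If it was, a counter that drops shared reads may have left out reads in both genes. Which of these held was not tested, so the 0 does not show that Igf2 was silent.

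H19 (chromosome 7, 142575529 to 142578143, minus strand) was nearly confined to the Cox10-/- library. It had 82 UMIs in 80 of 5167 Cox10-/- nuclei (5.66 CPM, 4.51 to 7.03), against 1 UMI in 5448 WT nuclei (0.0565 CPM, 0.00143 to 0.315). Within the Cox10-/- library it was not tied to a cell type. It stood at 6.41 CPM in hepatocyte-like (34 UMIs), 6.0 CPM in endothelial-like (19 UMIs), 6.95 CPM in myeloid-like (12 UMIs), 6.78 CPM in lymphoid-like (2 UMIs), 3.88 CPM in stellate-like (8 UMIs) and 9.58 CPM in cholangiocyte-like nuclei (3 UMIs), and all these intervals overlapped. No nucleus held more than 2 of its UMIs. In nuclei rich in Nrg1 and Areg it had 0 UMIs, which allows up to 6.01 CPM. The levels of the endothelial-like and stellate-like nuclei lie at or under that limit and those of the other classes above it. The interval of the ratio to hepatocyte-like nuclei reached 1.22, so a lower level was not resolved. Free RNA in the droplets gives every class a similar low level. Spp1, a cholangiocyte marker at 1970 CPM in cholangiocyte-like nuclei, likewise stood at 25.2 to 33.6 CPM in the other 6 Cox10-/- classes, against 1.71 CPM in WT hepatocyte-like nuclei. Whether the H19 UMIs came from the nuclei that carry them was not tested.

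Grb10 (chromosome 11, 11930508 to 12038683, minus strand) was the member with the most UMIs, 1267 in the Cox10-/- and 44 in the WT library, and it split the cell types. It stood at 210 CPM in nuclei rich in Nrg1 and Areg (172 to 255, 105 UMIs), 195 CPM in cholangiocyte-like (149 to 250, 61 UMIs), 185 CPM in endothelial-like (171 to 201, 587 UMIs) and 180 CPM in stellate-like nuclei (162 to 199, 371 UMIs). These 4 neighbours in the order did not differ beyond their intervals. Myeloid-like nuclei had 4.63 CPM (2.0 to 9.13), lymphoid-like nuclei 6.78 CPM (0.821 to 24.5) and hepatocyte-like nuclei 2.07 CPM (1.04 to 3.71). Endothelial-like nuclei thus held 89.3 times the level of hepatocyte-like nuclei (49.5 to 180). Among finer endothelial-like clusters the level was 240 CPM in 122 nuclei led by Mecom and Vwf (186 to 304), 190 CPM in 761 nuclei led by Stab2 and Robo4 among others (170 to 210) and 162 CPM in 536 nuclei led by Wnt2 and Cdh13 among others (137 to 189). The 2 finer stellate-like clusters stood at 200 CPM (175 to 227) and 156 CPM (131 to 183).

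The few WT nuclei of these types showed part of the same split of Grb10. It had 153 CPM in the 46 WT endothelial-like nuclei (83.5 to 256, 14 UMIs) and 70.8 CPM in the 33 WT stellate-like nuclei (28.5 to 146, 7 UMIs), against 0.768 CPM in WT hepatocyte-like nuclei (0.409 to 1.31, 13 UMIs). The 9 WT cholangiocyte-like nuclei had 0 UMIs (0 to 122 CPM), an interval that lies below that of the Cox10-/- cholangiocyte-like nuclei. There the 61 UMIs lay in 25 of 81 nuclei, with up to 8 in 1 nucleus. The intervals of the share of positive nuclei overlapped, 0 to 33.6% in WT and 21.1 to 42.1% in Cox10-/-, so a difference was not resolved. The ratio of Cox10-/- to WT was 1.21 in endothelial-like (0.717 to 2.23) and 2.54 in stellate-like nuclei (1.22 to 6.37), neither past the rule for a call given below. The median share of mitochondrially encoded UMIs was 17.7% in WT and 9.29% in Cox10-/- endothelial-like nuclei, and 13.7% and 7.02% in stellate-like nuclei. Of these WT nuclei 100% and 75.8% lay above 10%, and the part of this in the ratios was not tested. Over whole libraries Grb10 had 87.5 CPM in the Cox10-/- and 2.49 CPM in the WT library, and the Cox10-/- library also held far more endothelial-like and stellate-like nuclei. Fewer cells of a type and less RNA per cell cannot be told apart in such whole-library values. By share, 27.7% of Cox10-/- endothelial-like (25.4 to 30.1) and 33.9% of stellate-like nuclei (30.5 to 37.4) had a UMI of Grb10, against 1.22% of myeloid-like nuclei (0.527 to 2.39) as the background of a class at the low level, at median depths of 2133, 2578.5 and 2514 UMIs. With each nucleus thinned to 1000 UMIs the shares were 14.2% (12.4 to 16.1), 13.9% (11.5 to 16.5) and 0.462% (0.0954 to 1.34).

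**Figure D2:**
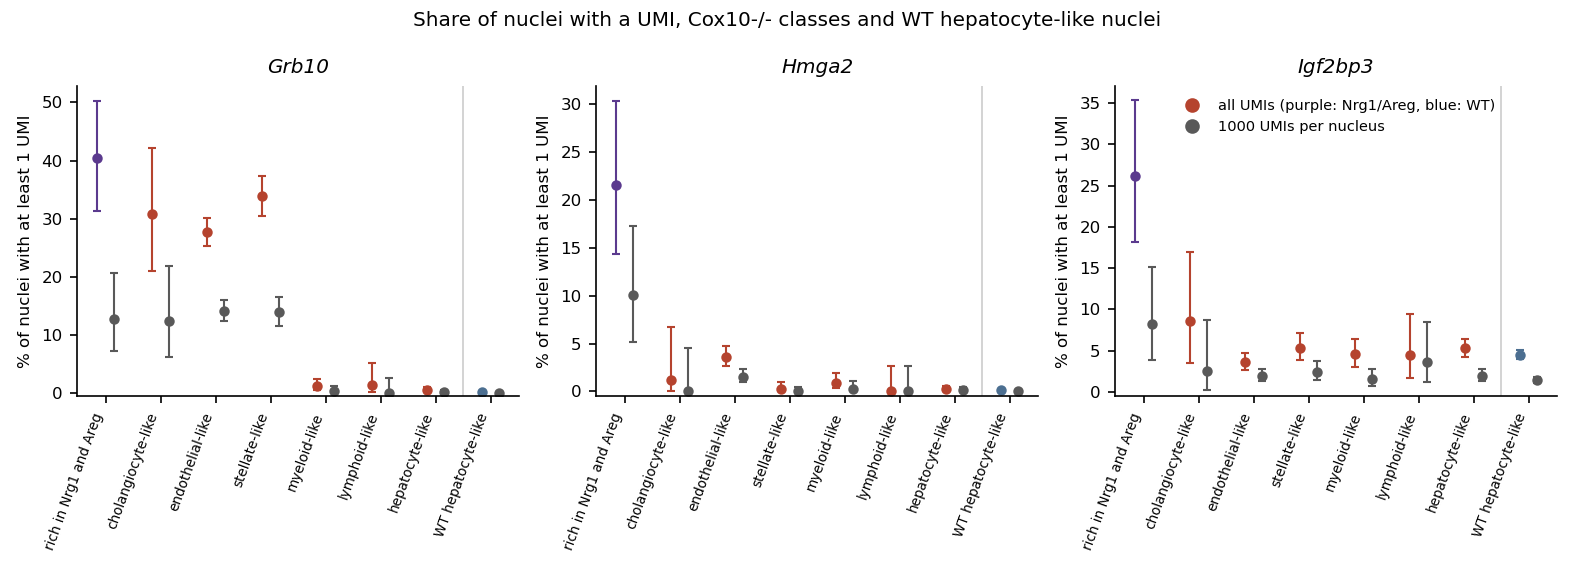
Share of nuclei with at least 1 UMI of Grb10, Hmga2 and Igf2bp3 in the classes of the Cox10-/- library and in WT hepatocyte-like nuclei, with all UMIs (coloured) and with each nucleus thinned to 1000 UMIs (grey), with Clopper-Pearson 95% intervals. The thinned shares of Grb10 lie at 12.5 to 14.2% in the 4 classes shown that hold most of it. The thinned share of Hmga2 is 10.1% in nuclei rich in Nrg1 and Areg and at most 1.56% in the other named classes. Unnamed nuclei are not shown.

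Igf2bp3 (chromosome 6, 49085223 to 49214957, minus strand) was found at a similar low level nearly everywhere. It had 309 UMIs in the Cox10-/- library (21.3 CPM, 19 to 23.9) and 254 in the WT library (14.3 CPM, 12.6 to 16.2). Outside nuclei rich in Nrg1 and Areg its level ran from 16.7 CPM in endothelial-like to 27.1 CPM in lymphoid-like Cox10-/- nuclei, and every one of these intervals overlapped. Nuclei rich in Nrg1 and Areg were the exception at 92.1 CPM (67.5 to 123, 46 UMIs). Of them 26.1% had a UMI of Igf2bp3 (18.2 to 35.3), against 4.57% of myeloid-like nuclei (3.10 to 6.45). The last bases of Igf2bp3 overlap Malsu1 on the other strand, which had 333 UMIs in the Cox10-/- and 396 in the WT library, and reads of the 2 genes cannot be told apart unless strand was used in counting. Malsu1 had 38.1 CPM in nuclei rich in Nrg1 and Areg and 54.3 CPM in cholangiocyte-like nuclei.

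Hmga2 (chromosome 10, 120361275 to 120476469, minus strand) had 132 UMIs in the Cox10-/- and 10 in the WT library. It reached 92.1 CPM in nuclei rich in Nrg1 and Areg (67.5 to 123, 46 UMIs in 24 nuclei). The next highest named class was endothelial-like, at 18.3 CPM (13.9 to 23.7, 58 UMIs), and both other classes with more than 2 UMIs stayed lower, hepatocyte-like nuclei at 0.755 CPM (4 UMIs) and myeloid-like nuclei at 3.47 CPM (6 UMIs). Among endothelial-like nuclei it was 23.8 CPM in the finer cluster led by Stab2 and Robo4 among others (17.3 to 31.8) and 9.09 CPM in that led by Wnt2 and Cdh13 among others (4.15 to 17.2). A finer unnamed cluster of 82 Cox10-/- nuclei, led by Tafa1 and Tnxb among others, stood at 32.6 CPM (16.9 to 57.0, 12 UMIs). The 46 WT endothelial-like nuclei held 2 UMIs of Hmga2, or 21.8 CPM (2.64 to 78.8). An antisense gene over its 3′ end, 1700006J14Rik, had 18 UMIs in the Cox10-/- and 0 in the WT library, none of them in nuclei rich in Nrg1 and Areg.

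Afp (chromosome 5, 90490737 to 90508907, plus strand) had 59 UMIs in the Cox10-/- library (4.08 CPM, 3.10 to 5.26) and 29 in the WT library (1.64 CPM, 1.10 to 2.35). It stood at 26.0 CPM in nuclei rich in Nrg1 and Areg (13.9 to 44.5, 13 UMIs in 10 nuclei) and at 4.90 CPM in hepatocyte-like nuclei (3.20 to 7.19, 26 UMIs in 26 nuclei). The WT hepatocyte-like nuclei had 1.54 CPM (1.0 to 2.25), and 1 of them held 8 of their 26 UMIs. Endothelial-like, stellate-like and myeloid-like Cox10-/- nuclei, which are not known to make Afp, stood at 2.21, 1.46 and 2.90 CPM. By share, 1.48% of Cox10-/- hepatocyte-like nuclei had a UMI at a median of 1671.5 UMIs, against 0.761% of myeloid-like nuclei at 2514 UMIs. The antisense gene Gm43449 overlaps the later part of Afp on the other strand and had 10.0 CPM in Cox10-/- and 12.4 CPM in WT hepatocyte-like nuclei. Reads of the pair cannot be told apart unless strand was used in counting.

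Among the named Cox10-/- classes Gpc3 and Cd24a had their highest levels in cholangiocyte-like nuclei and nuclei rich in Nrg1 and Areg. For Gpc3 the order of these 2 classes was not resolved. For Cd24a the interval of nuclei rich in Nrg1 and Areg overlapped those of endothelial-like (0.888 to 4.55 CPM) and myeloid-like nuclei (0.94 to 6.76 CPM). Gpc3 (chromosome X, 52272426 to 52613950, minus strand) had 44 UMIs in the Cox10-/- and 3 in the WT library. It stood at 35.1 CPM in cholangiocyte-like nuclei (17.5 to 62.9, 11 UMIs) and 20 CPM in nuclei rich in Nrg1 and Areg (9.61 to 36.8, 10 UMIs), against 5.34 CPM in stellate-like (2.67 to 9.56) and 0.943 CPM in hepatocyte-like nuclei (0.306 to 2.20). With nuclei above 10% mitochondrially encoded UMIs left out, Gpc3 had 18 CPM in nuclei rich in Nrg1 and Areg, 10.9 CPM in cholangiocyte-like nuclei and 1.73 CPM in those named stellate-like. The order of the first 2 was then the reverse. Of all cholangiocyte-like nuclei 69.1% lay above 10%, against 17.1% of nuclei rich in Nrg1 and Areg. Cd24a (chromosome 10, 43578284 to 43584265, plus strand) had 31 UMIs in the Cox10-/- and 4 in the WT library. It stood at 28.7 CPM in cholangiocyte-like nuclei (13.1 to 54.6, 9 UMIs) and 8.01 CPM in nuclei rich in Nrg1 and Areg (2.18 to 20.5, 4 UMIs). These intervals overlapped, and Cd24a had at most 2.90 CPM in the other named classes. With nuclei above 10% left out, Cd24a had 8.99 CPM in nuclei rich in Nrg1 and Areg (2.45 to 23.0). Its level in the remaining cholangiocyte-like nuclei is not given here. The antisense genes Gm14582 and A630012P03Rik lie over Gpc3 in GENCODE vM21 and had 15 and 11 UMIs in the Cox10-/- library. No antisense gene was examined for Cd24a.

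Nuclei rich in Nrg1 and Areg were set against other classes of the same library. A gene with at least 20 UMIs over both sums was called when its ratio was at least 2-fold and the whole interval lay beyond 1.5-fold. Against hepatocyte-like nuclei 5 members reached 20 UMIs, and 4 were called higher: Hmga2 122-fold (44.6 to 467), Grb10 101-fold (54.4 to 209), Afp 5.31-fold (2.51 to 10.7) and Igf2bp3 4.74-fold (3.27 to 6.78). In the background of 10392 genes 9.3% were called higher and 4.32% lower. Hmga2 (46 against 4 UMIs) and Grb10 (105 against 11 UMIs) reached 20 UMIs only through nuclei rich in Nrg1 and Areg. The count of 4 is therefore partly set by the filter. The fifth member, H19, had 0 against 34 UMIs. Gpc3 had 10 against 5 UMIs and Cd24a 4 against 4, which were too few for a call, although the ratios were 21.2 (6.61 to 79.2) and 10.6 (1.98 to 57.0).

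Against cholangiocyte-like nuclei, from whose cluster they had been separated, the members called were Hmga2 and Igf2bp3. Of 4 members with 20 UMIs these 2 were called higher, Hmga2 28.8-fold (4.93 to 1160, 46 against 1 UMIs) and Igf2bp3 4.12-fold (1.85 to 10.8, 46 against 7 UMIs), where 10.7% of 6029 genes were called higher and 8.59% lower. Both reached 20 UMIs only through nuclei rich in Nrg1 and Areg, so the count of 2 depends on the filter and supports nothing further. Grb10 had a ratio of 1.08 (0.780 to 1.51). Gpc3 had a ratio of 0.570 (0.217 to 1.48) and Cd24a of 0.279 (0.0627 to 0.999, 4 against 9 UMIs). Afp had 13 against 0 UMIs; the floor of 3 UMIs in cholangiocyte-like nuclei is 9.58 CPM, against 26.0 CPM. Taking instead the 62 Cox10-/- nuclei with a UMI of both Nrg1 and Areg, of which 56 lay in the cluster, Hmga2 stood at 80.3 CPM (52.0 to 119), Igf2bp3 at 70.7 CPM (44.3 to 107), Grb10 at 234 CPM (184 to 295) and Afp at 22.5 CPM (9.04 to 46.3).

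**Figure D3:**
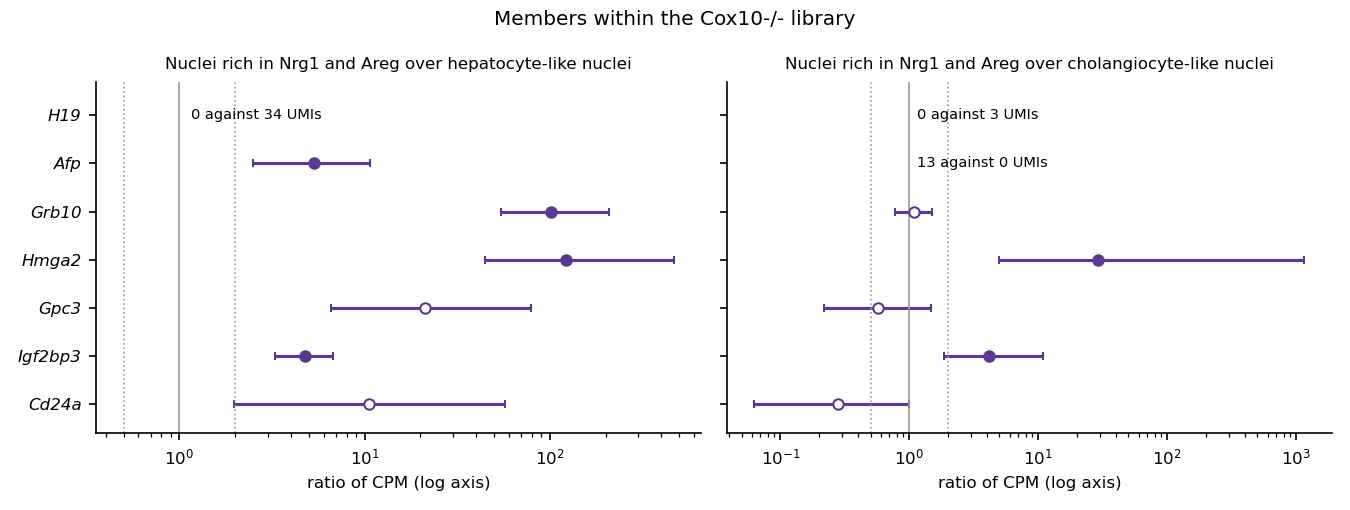
Ratio of CPM of each detected member in Cox10-/- nuclei rich in Nrg1 and Areg over hepatocyte-like (left) and over cholangiocyte-like nuclei (right) of the same library, on log axes, with 95% conditional binomial intervals; filled points were called, open points were not, and dotted lines mark 2-fold. Hmga2 and Igf2bp3 are called in both panels, and Grb10 only on the left, where its ratio is 101.

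Within these 111 nuclei the members were spread over many nuclei. A UMI of at least 1 member was found in 70 of them (63.1%), of at least 2 members in 34 and of at least 3 in 11, and 1 or more nuclei held 5 members. Grb10 was found in 45 nuclei, Igf2bp3 in 29, Hmga2 in 24, Afp in 10, Gpc3 in 8 and Cd24a in 3. Grb10 and Hmga2 were found together in 15 nuclei, where the product of their shares gives 9.73, Grb10 and Igf2bp3 in 18, where it gives 11.8, and Hmga2 and Igf2bp3 in 5, where it gives 6.27. Positive nuclei were deeper than negative ones, with medians of 5585 against 3661.5 UMIs for Grb10, 5559 against 3874 for Hmga2 and 5767 against 3808 for Igf2bp3, and the part of depth in these counts was not tested. With 1000 UMIs per nucleus, 31.2% of nuclei rich in Nrg1 and Areg had a UMI of any member, against 20% of cholangiocyte-like and 4.13% of hepatocyte-like nuclei.

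Hepatocyte-like nuclei, the class that AAV8 mainly reaches, carried little of any member in either library. Of the 4 members with at least 20 UMIs, 2 were called higher in the Cox10-/- library, and none lower, where 8.78% of 12576 genes were called higher and 3.28% lower. The median share of mitochondrially encoded UMIs was 8.17% in Cox10-/- and 12.6% in WT hepatocyte-like nuclei, with 33.8% and 71.2% of these nuclei above 10%, and its part in the calls was not tested beyond leaving those nuclei out. H19 had 34 UMIs in the Cox10-/- and 1 in the WT sum, a ratio of 109 (18.2 to 4410), or 5.96 on the log2 scale, against 4.73 without nuclei above 10%. It reached 20 UMIs only through the Cox10-/- sum, so the count of 2 calls is partly set by the filter. Afp had 26 UMIs in each sum, at 4.90 and 1.54 CPM, a ratio of 3.19 (1.78 to 5.72), and in the deeper Cox10-/- hepatocyte-like nuclei alone its log2 ratio of 1.41 no longer passed the rule (1.38 to 5.18 as a ratio). Grb10 had a ratio of 2.70 (1.10 to 6.53, 11 against 13 UMIs) and Igf2bp3 of 1.39 (1.09 to 1.76, 103 against 237 UMIs). Hmga2 had 4 against 7 UMIs, Gpc3 5 against 3 and Cd24a 4 against 2, with intervals of the ratio from 0.392 to 7.17, 1.04 to 34.3 and 0.915 to 70.6. Both calls rest on levels below 7 CPM, and for both genes the intervals of the endothelial-like, stellate-like, myeloid-like and lymphoid-like nuclei of the Cox10-/- library overlapped that of its hepatocyte-like nuclei.

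The lists of genes around the members, which unlike the members took part in the clustering, gave context in hepatocyte-like nuclei. The median log2 ratio of all genes tested was -0.02, and 8.78% of them were called higher and 3.28% lower. Of 14 measured Igf2 partners 3 were called higher and none lower (median 0.46): the binding proteins Igfbp3 246-fold (42.8 to 9830, 77 against 1 UMIs), Igfbp7 9.03-fold (5.85 to 14.3) and Igfbp1 2.06-fold (1.92 to 2.21). Igfbp3 and Igfbp7 were far higher in stellate-like nuclei of the Cox10-/- library, at 285 and 705 CPM, than in hepatocyte-like ones at 14.5 and 15.5 CPM. Igfbp7 also stood at 731 CPM in endothelial-like nuclei, and the part of these classes in the hepatocyte-like values was not tested. The receptor gene Igf1r had 14 against 15 UMIs, a ratio of 2.98 (1.33 to 6.62) that was not called. Of 11 imprinted genes 4 were called higher and none lower (median 0.76), the noncoding RNAs Rian, Meg3, Mirg and Airn. Meg3 reached 183 CPM in Cox10-/- against 2.60 CPM in WT hepatocyte-like nuclei, and unlike H19 it was lower, at 16.4 to 31.6 CPM, in the other 6 named classes of the Cox10-/- library. Airn, which lies across the Igf2 receptor gene, had a ratio of 6.32 (5.54 to 7.22). Where they overlap, reads of Airn and that gene cannot be told apart unless strand was used in counting. Igfbp3, Rian (195 against 4 UMIs) and Mirg (33 against 1 UMIs) reached 20 UMIs only through the Cox10-/- sum. The counts and medians of both lists are therefore partly set by the filter.

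The factors known to control Afp, H19 and Gpc3 in liver were mostly not called. Of 22 measured ones, Cebpb was called higher at 2.40-fold (2.26 to 2.55) and Onecut1 lower at 0.143 times the WT level (0.122 to 0.166), with a list median of -0.06. Zhx2, a repressor of Afp, H19 and Gpc3 in adult mouse liver, had a ratio of 1.20 (1.09 to 1.33), and Zbtb20, another repressor of Afp, one of 1.5 (1.47 to 1.52); both are named for this role, after their values were seen. The pioneer factors Foxa1 and Foxa2 had ratios of 0.515 (0.349 to 0.738) and 0.561 (0.437 to 0.713), which were not called. None of 9 genes of LIN28, let-7 and their targets was called (median 0.02), among them Myc at 1.63 (0.974 to 2.66), Hic2 at 0.706 (0.509 to 0.963) and Nr6a1 at 0.820 (0.775 to 0.868). None of 11 glypican and heparan sulfate genes was called (median -0.20), with Sdc1 at 1.85 (1.63 to 2.10), Gpc6 at 1.52 (1.40 to 1.64), Sdc2 at 0.678 (0.645 to 0.714) and Gpc4 at 0.696 (0.647 to 0.749).

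The paralogues of the members were not called in hepatocyte-like nuclei either, 0 of 9 (median 0.02). Igf2bp2 had 8.68 CPM in Cox10-/- and 8.57 CPM in WT nuclei, a ratio of 1.01 (0.710 to 1.42), while Igf2bp1 had 0 against 2 UMIs and Hmga1 6 against 6. Grb7 and Grb14, the other adaptors of the Grb10 family, had ratios of 1.03 (0.870 to 1.22) and 0.752 (0.707 to 0.799). Gpc1 had a ratio of 0.791 (0.508 to 1.20), beside Gpc4 and Gpc6 above. The albumin family neighbours of Afp had ratios of 1.49 for Alb (1.48 to 1.5), 1.59 for Gc (1.55 to 1.62) and 0.680 for Afm (0.628 to 0.736).

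Other genes of hepatoblasts, ducts and injury are given beside the 8.78% of all genes called higher and 3.28% called lower. Of 20 listed oncofetal and hepatoblast genes 9 had at least 20 UMIs, and 5 were called higher and none lower (median 1.97). Sox4, a transcription factor, had 27 against 0 UMIs, where the floor of 3 WT UMIs is 0.177 CPM against 5.09 CPM. Spink1, a trypsin inhibitor, had a ratio of 52.1 (16.8 to 261), Anxa2 33.5 (8.19 to 295), Lgals1 4.15 (1.68 to 10.6) and Lgr5, an R-spondin receptor, 3.98 (3.20 to 4.95). Of 19 listed progenitor and ductal genes 9 had at least 20 UMIs, and 6 were called higher and none lower (median 1.47), led by Spp1 at 15.5 (10.3 to 24.0), Tnfrsf12a at 8.30 (3.87 to 19.3), Krt8 at 5.25 (4.70 to 5.88) and Sox9 at 3.89 (2.16 to 7.06). Of 6 Yap targets 2 were called higher and none lower (median 0.48), Ccn2 at 95.8 (15.9 to 3910, 30 against 1 UMIs) and Ccn1 at 6.01 (5.05 to 7.18), while Ajuba at 1.88 (0.768 to 4.34) and Amotl2 at 0.686 (0.538 to 0.866) were not. Beside these, 10 of 11 immediate early genes, a check on tissue handling, were called higher and none lower (median 1.77), with Fosb at 54.7 (25.8 to 139), Klf6 at 12.1 (9.17 to 16), Fos at 6.18 (5.32 to 7.20) and Atf3 at 5.38 (4.87 to 5.95), and the part of handling was not tested. Sox4, Spink1, Anxa2, Tnfrsf12a, Ccn2 and Fosb reached 20 UMIs only through the Cox10-/- sum. The counts and medians of these lists are therefore partly set by the filter. Spink1 stood at 9.24 CPM in hepatocyte-like nuclei and at 5.83 to 9.15 CPM in the endothelial-like, stellate-like, myeloid-like and lymphoid-like nuclei of the Cox10-/- library. Sox4 stood at 5.09 CPM in hepatocyte-like nuclei and at 5.21 to 10.2 CPM in those 4 classes, so neither gene was confined to hepatocyte-like nuclei. Spp1 stood at 26.6 CPM in hepatocyte-like nuclei, within the 25.2 to 33.6 CPM of the other Cox10-/- classes outside cholangiocyte-like nuclei given above. Anxa2 had 3.96 CPM in hepatocyte-like nuclei and 23.2 to 61.7 CPM in those 4 classes, and Lgals1 had 2.45 CPM against 3.47 to 13.6 CPM. Ccn2 had 5.66 CPM in hepatocyte-like nuclei, against 86.4 CPM in stellate-like and 32.8 CPM in endothelial-like nuclei. The part of RNA from other classes in these hepatocyte-like values was not tested.

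**Figure D4:**
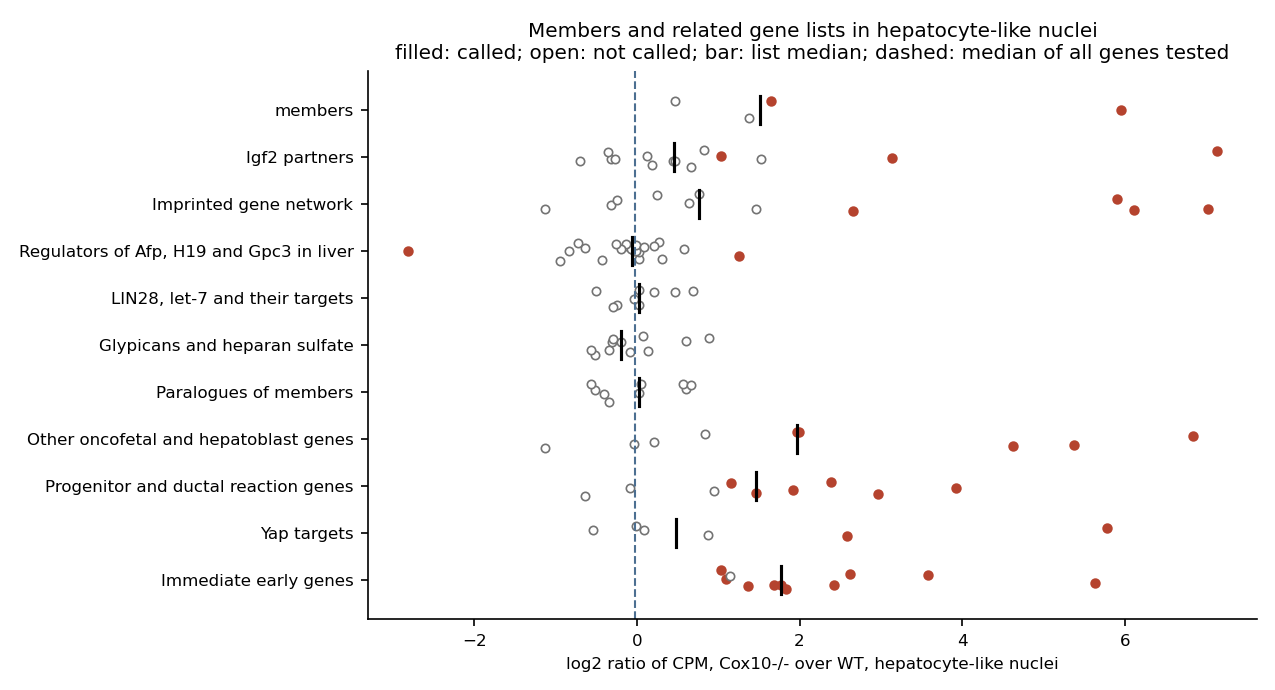
Log2 ratio of CPM, Cox10-/- over WT, in hepatocyte-like nuclei for each gene with at least 20 UMIs among the members and 10 related lists (filled points were called, open points were not), with the list median (bar) and the median of all genes tested (dashed, -0.02). The members H19 and Afp are called, no gene of the let-7, glypican and paralogue lists is called, and 10 of 11 immediate early genes are called higher.

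In nuclei rich in Nrg1 and Areg the genes called higher included several known let-7 targets. Beyond the members and paralogues, the genes named for these nuclei were chosen after their values were seen. Against hepatocyte-like nuclei 5 of 9 genes of LIN28, let-7 and their targets were called higher and none lower (median log2 ratio 1.0, against 0.09 over all genes tested): Hmga2, Igf2bp2, Myc, Igf2bp3 and Nr6a1. Against cholangiocyte-like nuclei 4 of 8 were called higher and none lower (median 1.32, against 0.13), namely Hmga2, Igf2bp2, Myc and Igf2bp3, of which Hmga2 and Igf2bp3 are members. All 4 reached 20 UMIs only through nuclei rich in Nrg1 and Areg, with at most 7 UMIs in cholangiocyte-like nuclei. These 4 calls therefore depend on the filter, the median is partly set by it, and both support nothing further. Against hepatocyte-like nuclei the same held for Hmga2, with 4 UMIs there. Over all genes 9.3% were called higher against hepatocyte-like and 10.7% against cholangiocyte-like nuclei. Igf2bp2, the close relative of Igf2bp3, had 208 CPM in nuclei rich in Nrg1 and Areg (104 UMIs), against 8.68 CPM in hepatocyte-like nuclei (24.0-fold, 16.8 to 34.8) and 12.8 CPM in cholangiocyte-like nuclei (16.3-fold, 6.18 to 61.0). Myc, a growth regulator, had 42.1 CPM, against 4.90 CPM (8.58-fold, 4.59 to 15.9) and 3.19 CPM (13.2-fold, 2.12 to 545, 21 against 1 UMIs). Lin28a had 0 UMIs and Lin28b 1 UMI in these 111 nuclei, both under the floor of 6.01 CPM, so their levels were not resolved. The paralogue Gpc6 was called lower against both classes, with 18.0 CPM against 176 and 434 CPM, and Grb7 and Afm were called higher against cholangiocyte-like nuclei only, at 13.2-fold (2.12 to 545) and 2.45-fold (1.52 to 4.11).

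**Figure D5:**
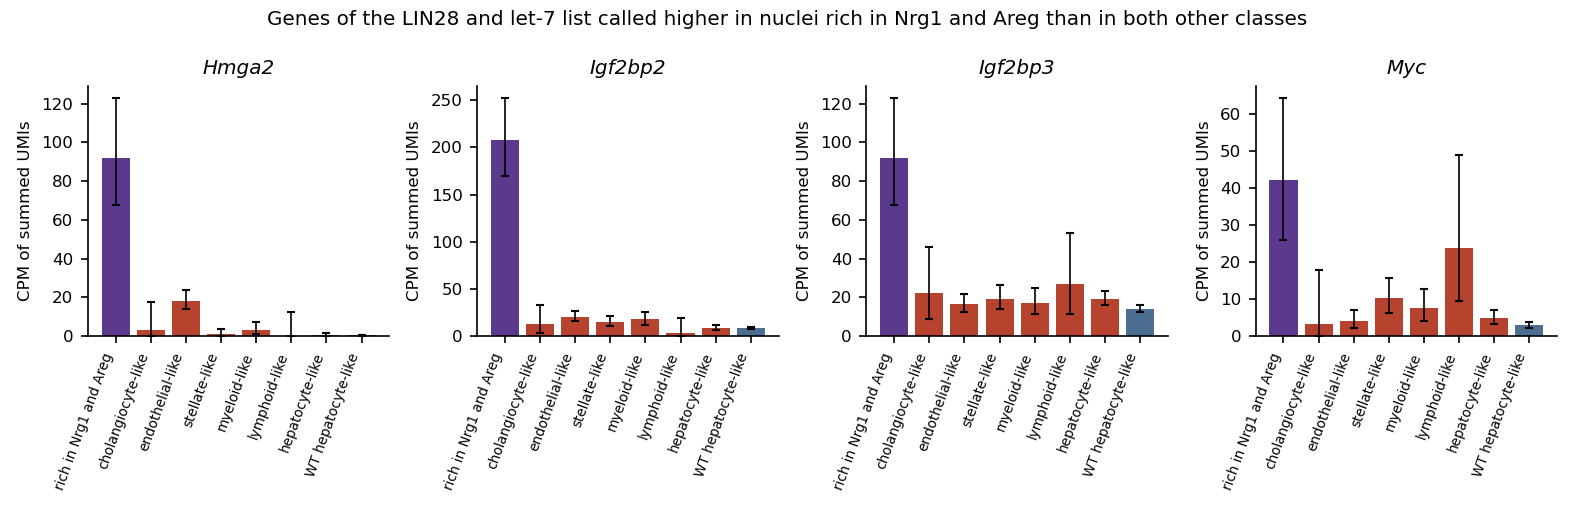
Level in CPM of summed UMIs (bars, from 0) with exact Poisson 95% intervals of the 4 genes of the LIN28 and let-7 list that were called higher in nuclei rich in Nrg1 and Areg (purple) than in hepatocyte-like and in cholangiocyte-like Cox10-/- nuclei (red), with WT hepatocyte-like nuclei in blue. Igf2bp2 reaches 208 CPM and Myc 42.1 CPM in nuclei rich in Nrg1 and Areg, and the lymphoid-like class is next for Myc at 23.7 CPM.

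Among the IGF genes, Igf2r was higher and Igf1 lower in nuclei rich in Nrg1 and Areg than in hepatocyte-like nuclei. Igf2r, which clears Igf2 from the cell surface, had 182 CPM, against 41.7 CPM in hepatocyte-like nuclei (4.37-fold, 3.39 to 5.61) and 41.5 CPM in cholangiocyte-like nuclei (4.39-fold, 2.44 to 8.56). Airn, transcribed across Igf2r, had 1170 CPM against 128 and 524 CPM, ratios of 9.13 (8.16 to 10.2) and 2.23 (1.87 to 2.66). Where they overlap, reads of Airn and Igf2r cannot be told apart unless strand was used in counting, so their values may not be independent. Igf1r was nearly absent with 1 UMI, against 83 UMIs in cholangiocyte-like nuclei, and Igf1 had 0.444 times the hepatocyte-like level (0.388 to 0.507). Of 13 Igf2 partners tested against hepatocyte-like nuclei 1 was called higher and 1 lower, and against cholangiocyte-like nuclei 3 of 12 were called higher and 3 lower. Over all genes the shares were 9.3% higher and 4.32% lower in the first comparison, and 10.7% higher and 8.59% lower in the second. In the second, Igf2r, Irs2, Igf1r and Igfbp7 reached 20 UMIs through 1 class only, so its counts are partly set by the filter. Among the imprinted genes 3 of 10 were called higher and 2 lower against hepatocyte-like nuclei, where Meg3 and Rian were the lower ones, with 24.0 against 183 CPM and 2.0 against 36.8 CPM. Of the regulators of Afp 1 of 21 was called higher, Zfhx3 at 2.17-fold (1.81 to 2.58), and 2 lower, Trim28 and Zhx3. Beside the 9.3% higher and 4.32% lower over all genes, glypicans had 0 of 10 higher and 3 lower, other oncofetal genes 3 of 7 higher, progenitor genes 3 of 9 higher, Yap targets 1 of 5 higher and immediate early genes 2 of 11 higher and 2 lower against hepatocyte-like nuclei.

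The genes whose levels followed a member most closely were sought over 13 Cox10-/- clusters of at least 20 nuclei, among 10163 genes with at least 100 UMIs, as a description without a test. Clusters share their library and differ in depth, and with 13 points high correlations are frequent. For Hmga2 the first 3 were Ets2 (r = 0.823), Igf2bp2 (r = 0.808) and Trmt9b (r = 0.785), all on log2(CPM + 1). For Igf2bp3 they were Ermp1 (0.947), Zc3h13 (0.931) and Pex11a (0.919), for Grb10 Spats2l (0.915), Zfp945 (0.911) and Dtx3 (0.910), for Afp Rnf44 (0.884), Rpia (0.872) and Myc (0.861), and for H19 Gimap9 (0.948), Ppp3r1 (0.894) and Cops6 (0.893). Gpc3 and Cd24a had fewer than 50 UMIs in the Cox10-/- library and were left out.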

How the data were processed

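The authors deposited raw UMI counts per gene and nucleus for 1 Cox10-/- and 1 WT liver. Per the submitters' processing notes Cell Ranger 7.0 and mm10 were used; the counting of introns and strand is not given in the sources used here. Each animal gave 1 library made from nuclear RNA with a 3′ kit, after digestion and a 70 µm strainer, with 7000 nuclei as the stated input. No nucleus was left out: the 10615 deposited ones had 601 to 3999 genes each, and their share of mitochondrially encoded UMIs reached 20%.

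The members and lists were chosen with earlier results of these data known. With scanpy 1.11.5 and leidenalg 0.10.2, counts were scaled to 10000 per nucleus and log-transformed, 2000 variable genes without the members gave 30 principal components and 15 neighbours, and Leiden clustering used resolution 1.0. Clusters were named from marker genes, with naming thresholds set after seeing the data, so class names are rebuilt. The nuclei rich in Nrg1 and Areg were taken from resolution 2.0. Of their parent cluster, 81 Cox10-/- and 9 WT nuclei kept the name cholangiocyte-like. At resolution 2.0 the cluster of these nuclei missed the naming rule. Its mean log2 excess was 5.145 for cholangiocyte markers but 1.075 for mesothelial markers, where the rule asks for less than 1.0. The levels of cholangiocyte-like nuclei were therefore not checked at that resolution.

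UMIs were summed per library and class. Intervals are exact Poisson for CPM, Clopper-Pearson for shares and conditional binomial for ratios, all at 95%; the ratio code was tested on simulated data. A floor is 3 UMIs over a class. Doublets were left in: Scrublet marked 14 Cox10-/- nuclei (0.27%) and 0 WT nuclei, so its call did not work, and removing the highest 4% of scores was tried instead. Text names all members, up to 4 genes per list with the largest ratio in hepatocyte-like nuclei, all paralogues, and 3 genes most like each member. Promoters and miRNAs came from RefSeq (GRCm38.p6) and 3′ UTRs and coordinates from GENCODE vM21 (mm10). TMM (edgeR 4.0.16) and DESeq2 1.42.0 size factors were alternatives.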

Additional observations from a re-analysis of the deposited data

How the results depend on the processing

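In hepatocyte-like nuclei 2 members were called between the libraries. The count was 0 with at least 100 UMIs per gene, where neither H19 nor Afp has enough UMIs, 0 with each nucleus thinned to 1000 UMIs, where both fall under 20 UMIs, and 1 (H19) without the shallow Cox10-/- hepatocyte-like cluster, where Afp had a log2 ratio of 1.41; this last alternative was chosen after seeing the data. The share of Cox10-/- endothelial-like nuclei with Grb10 was 14.2% after thinning, against 27.7% with all UMIs. The count of 4 members higher in nuclei rich in Nrg1 and Areg stayed 4 without nuclei above 10% mitochondrially encoded UMIs. It was also 4 in the 62 nuclei with a UMI of both genes, but 56 of these lay in the cluster. Removing the highest doublet scores, added after seeing the data, took out 0 of the 111 nuclei. Their levels could not change under it, so it checks nothing for this class. Of 52 other log2 ratios 51 kept their direction and their side of the threshold, and of 70 levels 67 moved by less than their interval. The exceptions, with nuclei above 10% mitochondrially encoded UMIs left out, were Grb10 at 295 CPM and Gpc3 at 10.9 CPM in cholangiocyte-like nuclei, and Gpc3 at 1.73 CPM in stellate-like nuclei. No paired analysis was possible because each genotype has 1 library. Depth limits H19, Afp, Gpc3 and Cd24a most, each with fewer than 100 UMIs in the Cox10-/- library.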
